A study of Saccharomyces cerevisiae with 5 samples.

Results

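The 37 genes described here encode the nuclear subunits of the yeast respiratory chain and ATP synthase, of 6567 features measured in all. The rule that picks them uses their systematic names and no measured value, although the list was drawn up with earlier results of these data known. The list holds 3 alternative NADH dehydrogenases, 4 subunits of succinate dehydrogenase, 9 of complex III, 7 of complex IV and 14 genes of ATP synthase with its inhibitor INH1. The paired isoforms COX5A and COX5B of complex IV are not on it. Poly(A) RNA came from 5 strains of Saccharomyces cerevisiae, grown without synchronisation at 30 °C in rich medium and taken in mid-log phase. Of these, 4 lacked 1 subunit gene each of the chromatin remodelling complex INO80: ino80d (ino80::LEU2, the ATPase), arp8d (arp8::LEU2) and arp5d (arp5::LEU2), both actin-related subunits, and ies6d (ies6::LEU2, a small subunit). The WT strain was BY4741, of mating type a, with the markers his31, leu20, met150 and ura30 in the spelling of the labels, and the labels give the mutants as made in it. Each mutant therefore carried a LEU2 gene that WT lacked, so loss of the subunit and gain of LEU2 cannot be told apart in any comparison with WT.

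The respiratory chain passes electrons from NADH and succinate through coenzyme Q, complex III and cytochrome c to complex IV, which reduces oxygen. Complexes III and IV pump protons, and ATP synthase uses the returning protons to make ATP. Budding yeast has no proton-pumping complex I and uses single-protein NADH dehydrogenases in its place. On glucose, yeast mostly ferments and holds many of these genes at a low level. The HAP complex is a known activator of the chain: Hap2, Hap3 and Hap5 bind DNA at CCAAT sequences and Hap4 carries the activating part.

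Each strain had 1 deposited FPKM value per feature, standing for 2 biological replicates. FPKM is a number of sequenced fragments divided by transcript length and scaled to the number of mapped fragments. No replicate error could be computed and no difference was tested, so genes are described by size. The ratio used is log2 of (FPKM + 1) in the mutant over (FPKM + 1) in WT, and "at least 1.5-fold" refers to this ratio. Features with a mean of at least 5 FPKM over the 5 strains were kept, 6192 in number, and all 37 genes were among them. None of the 37 was listed at 0 in any strain. All comparisons with WT share the same WT values. In these cultures a change in all cells and a change in the share of cells that express a gene cannot be told apart.

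The deleted genes were at 0.0257 to 0.211 FPKM in their own strains. LEU2 lay between 81.3 and 125 FPKM in the mutants, against 0.0619 FPKM in WT. Against the shared marker genotype, MET17 (MET15 in the older name) lay at 807 FPKM in ino80d and 564 in arp8d, and at 0.2005 in arp5d, 0.571 in ies6d and 0.482 in WT. LYS2 lay at 0.0138 FPKM in ino80d and 0.0390 in arp5d, and at 32.3 in arp8d, 25.01 in ies6d and 36.9 in WT. Chromosome I was high in ino80d, with a median log2 ratio of 0.69 over its 81 ORFs of at least 300 coding bases, and chromosome III was high in ies6d, at 0.35 over 146. The MET17 and LYS2 values go against a marker genotype shared by all strains. ino80d, arp8d and arp5d may thus differ from WT at these genes too, and such a difference cannot be told apart from loss of the subunit. None of the 37 genes lies on chromosome I or III. Chromosome XI, which holds SDH1, SDH3 and ATP7, had medians between -0.02 and 0.11.

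Upstream sequence of these genes was examined for the HAP complex's CCAAT sequence, because HAP4 RNA was higher in each mutant than in WT. The motifs were searched on both strands in the 500 bases before the start codon, in the R64 assembly from RefSeq. The longer form ACCAATNA, which contains CCAAT, was found before 17 of 37 genes (45.9%), and before 490 of 5633 kept annotated ORFs (8.70%). CCAAT alone was found before 34 of 37 genes, against 3539 of 5633 ORFs (62.8%). The genes with ACCAATNA were NDE1, NDI1, SDH1, COR1, QCR7, RIP1, COX6, COX8, COX12, COX13, ATP3, ATP4, ATP7, ATP14, ATP15, ATP17 and TIM11. The 30-base stretches listed here, with the motif in capitals and read along the strand that holds it, show the site in at least 1 gene of each complex and in both genes of the list with a site on the opposite strand.
NDE1 (chrXIII:556560-556589, minus strand): tattctggtaaACCAATTAaagagagaaaa
SDH1 (chrXI:171429-171458, minus strand): ggcgggggtggACCAATCAcagcgcagaac
QCR7 (chrIV:1496712-1496741, minus strand): atcttgttttgACCAATCAggagcgacgcg
RIP1 (chrV:107001-107030, plus strand): ctccataacggACCAATCAgcgttttgcgc
COX6 (chrVIII:209477-209506, minus strand, opposite to the gene): gctttgaccggACCAATTAggtcccttttc
COX12 (chrXII:225360-225389, minus strand): tcataacattgACCAATCAattttcagaaa
ATP7 (chrXI:408149-408178, minus strand): gtaaaagatacACCAATTAccacttgctgc
ATP15 (chrXVI:29934-29963, plus strand): cttttatacgaACCAATGAaatttgatcct
TIM11 (chrIV:1112420-1112449, plus strand, opposite to the gene): tggctccgcggACCAATTAgcgtggagatt

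The 17 genes held 18 such sites, and in 12 of them (66.7%) the end nearer the gene lay 150 to 250 bases before the start codon, a window chosen with the positions known. Over all kept annotated ORFs this held for 113 of 517 sites (21.9%). The motif read along the gene's own strand in 16 of the 18 sites (88.9%), and in 48.5% of the 517. With 300 bases searched instead of 500, a choice made after seeing the data, 15 of 37 genes and 5.27% of ORFs had the longer form. The Hap1 motif, a pair of CGG triplets in direct repeat around TA, was found before QCR6 alone of the 37, and before 0.373% of ORFs. The stress element CCCCT was found before 18 of 37 genes, and before 34.4% of ORFs. These matches are letters in a window and carry no measurement of binding.

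Most of the 37 genes lay above WT in every mutant. In ino80d 37 of 37 lay above WT (48.8% of all kept features did), in arp8d 34 (47.4%), in arp5d 37 (48.0%) and in ies6d 37 (47.6%). A level at least 1.5-fold higher was found for 27 genes in ino80d, against 15.1% of all kept features. In arp8d it was found for 14 (11.0% of kept features), in arp5d for 22 (13.3%) and in ies6d for 32 (14.4%). At 2-fold the numbers were 12 for ino80d (6.82%), 2 for arp8d (5.10%), 7 for arp5d (6.44%) and 16 for ies6d (7.28%), so that in arp8d the share at 2-fold, 5.41%, was near that of all features. None was at least 1.5-fold lower in any mutant, a size reached by 13.2% of kept features in ino80d, by 8.33% in arp8d, by 10.9% in arp5d and by 10.4% in ies6d. The median log2 ratio over the 37 was 0.83 for ino80d, 0.50 for arp8d, 0.73 for arp5d and 0.94 for ies6d, and over all kept features it was -0.01, -0.02, -0.02 and -0.02 in the same order. Summed, the 37 genes made up 0.959% of all FPKM for ino80d, 0.8495% for arp8d, 0.8898% for arp5d and 0.9399% for ies6d, against 0.552% in WT.

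In all 4 mutants 34 of the 37 lay above WT (34.8% of all kept features did) and 13 were at least 1.5-fold higher (7.98%). These 13 were NDE1, NDE2, NDI1, SDH1, SDH2, SDH4, COR1, QCR9, COX7, COX8, COX13, ATP3 and INH1. The exceptions to the 34 were QCR6, COX9 and TIM11, each below WT in arp8d alone, and above it there when each strain was divided by its FPKM sum. That division also raised the median of all kept features in arp8d, from -0.02 to 0.26. As deposited, these genes lay below that median too. With the median of ORFs of like coding length subtracted, 3 genes lay below 0 in arp8d and 1 in arp5d. In arp5d the log2 ratio of TIM11 was only 0.01 as deposited. In arp5d and ies6d, the mutants without MET17 RNA, 22 genes were at least 1.5-fold higher in both (11.3% of kept features). In arp8d and ies6d, the mutants with LYS2 RNA, 14 were (9.27%).

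**Figure D1:**
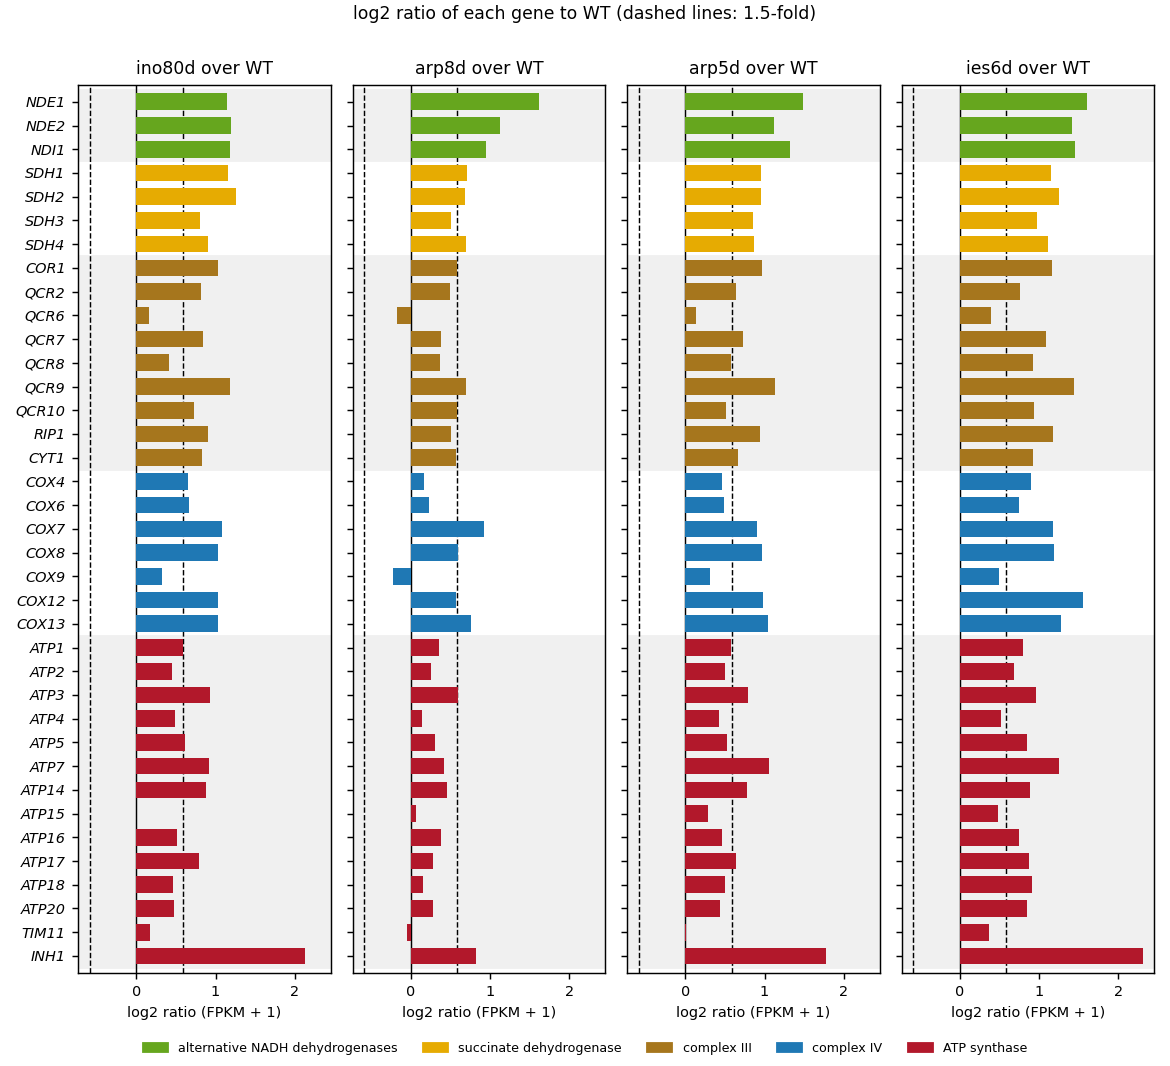
Log2 ratio (FPKM + 1) of each of the 37 genes in ino80d, arp8d, arp5d and ies6d over WT, 1 bar per gene, coloured by complex, with dashed lines at 1.5-fold. Bars point right in all panels except QCR6, COX9 and TIM11 in arp8d, and INH1 has the longest bar in ino80d, arp5d and ies6d. The bars pointing left turn positive when strains are divided by their FPKM sum. With the median of ORFs of like coding length subtracted, 3 genes lie below 0 in arp8d and 1 in arp5d. That division also raises the median of all kept features in arp8d to 0.26.

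The complexes differed in the size of their ratios. The NADH dehydrogenases had the highest median log2 ratio in each mutant (1.18 for ino80d, 1.13 for arp8d, 1.32 for arp5d and 1.45 for ies6d) and ATP synthase the lowest (0.55, 0.29, 0.51 and 0.85). Succinate dehydrogenase lay at 1.03, 0.69, 0.91 and 1.14, complex IV at 1.03, 0.57, 0.91 and 1.17, and complex III at 0.83, 0.51, 0.66 and 0.94. Since the same WT values stand under each ratio, the repeated order of the complexes over 4 mutants is not independent evidence.

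**Figure D2:**
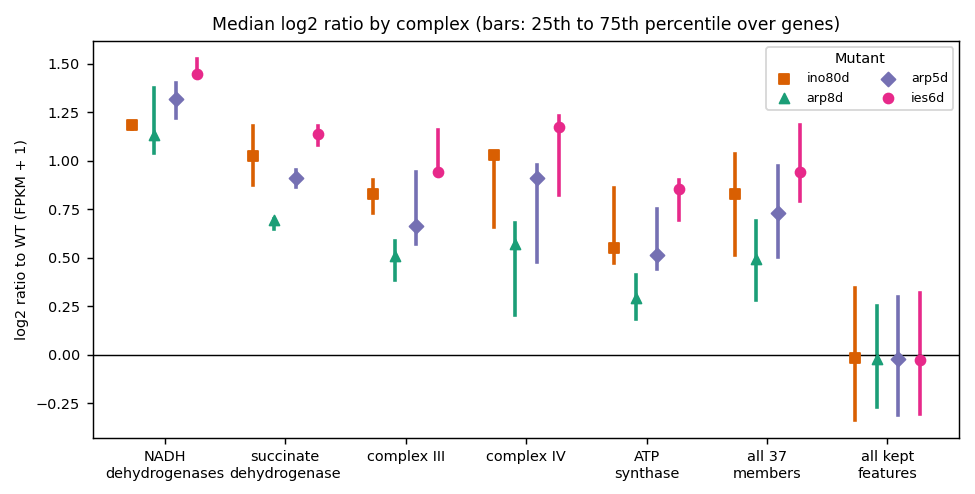
Median log2 ratio to WT (FPKM + 1) for each complex, for the 37 genes and for all 6192 kept features, by mutant, with bars from the 25th to the 75th percentile over genes. The medians of the kept features lie near 0, and those of ATP synthase run from 0.29 in arp8d to 0.85 in ies6d.

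The alternative NADH dehydrogenases pass electrons from NADH to coenzyme Q without pumping protons. NDE1 (YMR145C, chromosome XIII, 554793 to 556475), the main external enzyme, which uses cytosolic NADH, lay at 334 FPKM in ino80d, 465 FPKM in arp8d, 423 FPKM in arp5d and 458 FPKM in ies6d, against 150.5 FPKM in WT. It was the only 1 of the 37 with its highest level in arp8d, and its log2 ratios ran from 1.14 in ino80d to 1.62 in arp8d. NDE2 (YDL085W, chromosome IV, 303211 to 304848), the second external enzyme, was the lowest of all 37 genes in every strain, at 9.53 FPKM in ino80d, 9.08 FPKM in arp8d, 9.04 FPKM in arp5d and 11.3 FPKM in ies6d, against 3.60 FPKM in WT. Its log2 ratios were 1.19, 1.13, 1.12 and 1.42 with 1 FPKM added. At this low level they depend on that addition, and the one in arp8d was 1.31 with 0.1 FPKM added. NDI1 (YML120C), the internal enzyme for matrix NADH, lay at 79.7, 67.9, 87.6 and 96.1 FPKM in ino80d, arp8d, arp5d and ies6d, against 34.6 FPKM in WT. All 3 genes were at least 1.5-fold higher in each mutant, which held for 7.98% of all kept features.

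Succinate dehydrogenase joins the citric acid cycle to the chain. All 4 of its subunit genes were at least 1.5-fold higher in ino80d, arp5d and ies6d, and 3 of 4 in arp8d, with SDH3 the exception. Over all kept features, 15.1, 11.0, 13.3 and 14.4% reached this size in ino80d, arp8d, arp5d and ies6d. SDH2 (YLL041C, chromosome XII, 53131 to 53931), the iron-sulfur subunit, lay at 183 FPKM in ino80d, 123 FPKM in arp8d, 148 FPKM in arp5d and 183 FPKM in ies6d, against 76.1 FPKM in WT. SDH3 (YKL141W, chromosome XI, 179667 to 180263), a membrane anchor, had the smallest mean ratio of the 4, at 438, 358, 457 and 493 FPKM in the same order, against 251 FPKM in WT. SDH1 (YKL148C), the flavoprotein, was the lowest of the complex per length in each strain, at 38.2, 27.8, 33.1 and 38.3 FPKM, against 16.6 FPKM in WT. SDH4 (YDR178W), the other anchor, lay at 212, 184, 208 and 247 FPKM, against 113 FPKM in WT. The highest gene of the complex stood 11.5-fold over the lowest in ino80d, 12.9-fold in arp8d, 13.8-fold in arp5d and 12.9-fold in ies6d, and 15.1-fold in WT.

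Complex III takes electrons from coenzyme Q to cytochrome c. Of its 9 nuclear genes, 7 reached 1.5-fold above WT in ino80d, 3 did so in arp8d, 6 in arp5d and 8 in ies6d. That size was reached by 15.1, 11.0, 13.3 and 14.4% of kept features, with the mutants in the same order. Ratios of the redox subunits were similar. CYT1 (YOR065W), cytochrome c1, lay at 114, 94.9, 101 and 122 FPKM in ino80d, arp8d, arp5d and ies6d, against 63.6 FPKM in WT. RIP1 (YEL024W), the Rieske iron-sulfur protein, lay at 154, 117, 159 and 187 FPKM, against 82.1 FPKM in WT. COR1 (YBL045C), a core subunit on the matrix side, lay at 229.8, 169, 221 and 252 FPKM, against 112 FPKM in WT. The other core subunit, QCR2, was the only gene of the complex with its highest level in ino80d, at 193, 154, 171 and 185 FPKM, against 109 FPKM in WT. Together the core subunits had log2 ratios from 0.50, for QCR2 in arp8d, to 1.16, for COR1 in ies6d.

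The 5 small supernumerary subunits of complex III were the most unlike each other. QCR9 (YGR183C, chromosome VII, 859063 to 859476), the gene with the highest mean ratio in the complex, lay at 2022 FPKM in ino80d, 1451 FPKM in arp8d, 1956 FPKM in arp5d and 2433 FPKM in ies6d, against 893 FPKM in WT. QCR6 (YFR033C, chromosome VI, 224326 to 224769), the acidic hinge subunit that helps cytochrome c bind, lay at 355, 281, 348 and 415 FPKM, against 316 FPKM in WT. No mutant took QCR6 past 1.5-fold, and its log2 ratio was -0.17 in arp8d and 0.39 in ies6d. The ratio in arp8d turned positive under division by the FPKM sum, which raised the median of all kept features there to 0.26. QCR7, QCR8 and QCR10 lay between these, with log2 ratios of 0.37 to 1.09. QCR7 (YDR529C), whose ACCAATCA site is printed above, lay at 789.6, 576, 732 and 939 FPKM in ino80d, arp8d, arp5d and ies6d, against 440.2 FPKM in WT. QCR8 passed 1.5-fold in ies6d alone, at 1118 FPKM there and 779, 758 and 872 FPKM in ino80d, arp8d and arp5d, against 586 FPKM in WT.

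Complex IV reduces oxygen with 3 catalytic subunits encoded in mitochondrial DNA, which were not analysed here, and the nuclear genes encode its surrounding subunits. Of the 7 genes, 6 reached 1.5-fold above WT in ino80d, 3 did so in arp8d, 4 in arp5d and 6 in ies6d. Among all kept features 15.1, 11.0, 13.3 and 14.4% did, in the same order. COX12 (YLR038C, chromosome XII, 224921 to 225172), a subunit on the intermembrane side, lay at 1067 FPKM in ino80d, 777 FPKM in arp8d, 1034 FPKM in arp5d and 1533 FPKM in ies6d, against 523 FPKM in WT. Its level in ies6d stood well above the other mutants, with a log2 range between mutants of 0.98, second to INH1 among the 37. COX9 (YDL067C, chromosome IV, 334217 to 334396), among the highest of the 37 per length, lay at 3237, 2219, 3224 and 3638 FPKM, against 2589.9 FPKM in WT. It did not reach 1.5-fold in any mutant. Its place below WT in arp8d turned under division by the FPKM sum, which raised the median of all kept features there to 0.26.

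COX7, COX8 and COX13 were at least 1.5-fold higher in each mutant. COX7 (YMR256C) was the most even, at 2511, 2254, 2237 and 2688 FPKM in ino80d, arp8d, arp5d and ies6d, against 1191 FPKM in WT. COX8 (YLR395C) lay at 1766, 1303, 1692 and 1961 FPKM, against 861 FPKM in WT, and COX13 (YGL191W) at 836, 694, 845 and 988 FPKM, against 408 FPKM in WT. Both have an ACCAATNA match. COX4, the zinc-binding subunit, and COX6 had log2 ratios of 0.17 and 0.24 in arp8d, 0.46 and 0.49 in arp5d, 0.65 and 0.67 in ino80d, and 0.90 and 0.75 in ies6d.

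**Figure D3:**
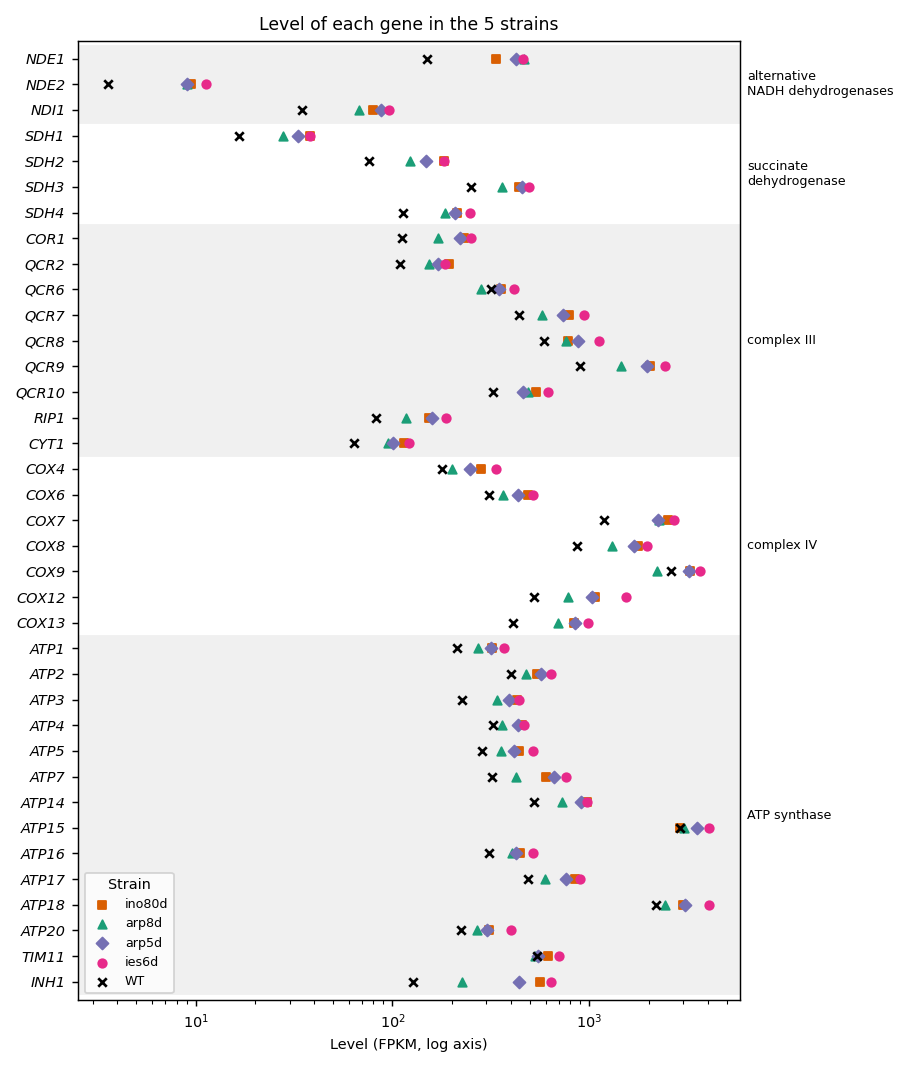
Level of each of the 37 genes in ino80d, arp8d, arp5d, ies6d and WT, in FPKM on a log axis, 1 marker per strain, grouped by complex. WT (cross) is the leftmost marker for 34 genes, and levels run from 3.60 FPKM for NDE2 in WT to 4077 FPKM for ATP18 in ies6d.

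ATP synthase has a catalytic F1 head, a stator stalk and a membrane sector. Of its 14 genes, 7 reached 1.5-fold above WT in ino80d, 2 did so in arp8d, 5 in arp5d and 11 in ies6d. In arp8d, 2 of 14 genes is close to the 11.0% of all kept features. Their share was 15.1% in ino80d, 13.3% in arp5d and 14.4% in ies6d. Among the F1 genes, ATP1 (alpha) and ATP2 (beta), which form the catalytic sites, had log2 ratios of 0.59 and 0.45 in ino80d, 0.36 and 0.25 in arp8d, 0.57 and 0.50 in arp5d, and 0.79 and 0.68 in ies6d. ATP3 (gamma), the rotating shaft, was higher, at 429, 339.7, 389 and 441 FPKM in ino80d, arp8d, arp5d and ies6d, against 225 FPKM in WT. ATP15 (YPL271W), the small epsilon subunit, lay at 2893 FPKM in ino80d, 3031 FPKM in arp8d, 3524 FPKM in arp5d and 4032 FPKM in ies6d, against 2891 FPKM in WT. As deposited, its log2 ratio in ino80d was 0.00. ATP16 (delta) had log2 ratios from 0.39 to 0.74.

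The stator genes ATP4, ATP5, ATP7 and ATP14 had medians of 0.75 for ino80d, 0.36 for arp8d, 0.66 for arp5d and 0.87 for ies6d. ATP7 (YKL016C) had the highest mean of them, at 603, 427, 663 and 761 FPKM in ino80d, arp8d, arp5d and ies6d, against 319 FPKM in WT. ATP14 (YLR295C) was even in ino80d and ies6d, at 972, 725, 907 and 969.9 FPKM, against 526 FPKM in WT. ATP4, which anchors the stalk in the membrane, did not reach 1.5-fold in any mutant. Of the membrane-sector genes ATP17, ATP18, ATP20 and TIM11, the first reached 1.5-fold in ino80d, arp5d and ies6d, and ATP18 and ATP20 in ies6d alone. ATP18 (YML081C-A), subunit j, lay at 3005, 2428, 3079.7 and 4077 FPKM in ino80d, arp8d, arp5d and ies6d, against 2174.5 FPKM in WT. TIM11 (YDR322C-A, chromosome IV, 1112003 to 1112293), subunit e, which joins ATP synthase into dimers, had the lowest mean ratio of all 37. It lay at 614 FPKM in ino80d, 528 FPKM in arp8d, 547 FPKM in arp5d and 703 FPKM in ies6d, against 544 FPKM in WT. Its place below WT in arp8d also turned under division by the FPKM sum, with the median of all kept features there raised to 0.26.

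INH1 (YDL181W, chromosome IV, 135179 to 135436), the protein that stops ATP synthase from running backwards as an ATPase, had the highest mean ratio of all 37. It lay at 560.1 FPKM in ino80d, 227 FPKM in arp8d, 439 FPKM in arp5d and 638 FPKM in ies6d, against 128 FPKM in WT. The FPKM ratio was 4.38 for ino80d, 1.77 for arp8d, 3.44 for arp5d and 4.99 for ies6d. INH1 was the lowest of the 14 genes in arp8d and in WT, but not in ino80d, arp5d or ies6d, where ATP20 or ATP1 was lower. Of the 37 genes it also differed most between mutants, with a log2 range of 1.49.

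The order of the genes by level was nearly the same in each strain. Across the 37 genes, which are not independent replicates, Spearman's rho of FPKM was 0.956 to 0.970 between a mutant and WT and 0.965 to 0.992 between mutants. The strains share the gene lengths that FPKM divides by. Levels within a complex differed by more than any mutant from WT. In complex III the highest gene, QCR9, stood 17.8-, 15.3-, 19.3- and 19.9-fold over the lowest, CYT1, in ino80d, arp8d, arp5d and ies6d, and 14.0-fold in WT.

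The mutants could be set against each other without WT. The level was highest in ies6d of the 4 mutants for 33 of the 37 genes, against 29.2% of all kept features. It was lowest in arp8d for 32 (27.7% of kept features), and both held for 29 (11.2%). This order holds for values as deposited or centred on the median of all features. After division of each strain by its own FPKM sum, which moved the median of all kept features by 0.28 in arp8d, 0.15 in ino80d, 0.06 in arp5d and -0.13 in ies6d, both held for 3 genes. Taken relative to that shifted median, both held for 30 genes, and for 31 with the deposited values treated likewise.

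In pairs, with values as deposited, ies6d lay above arp8d for 36 of 37 genes (51.3% of kept features), with a median log2 difference of 0.51 and NDE1 the exception. The same difference was 0.45 for succinate dehydrogenase, 0.56 for complex III, 0.59 for complex IV, 0.43 for ATP synthase and 0.29 for the NADH dehydrogenases. Arp5 and Ies6 are known to form a module of the complex, and ies6d lay above arp5d for 37 of 37 genes (51.1%), with a median of 0.25 and a range of 0.09 to 0.57. Over all long ORFs, those of at least 300 coding bases, the median of ies6d over arp5d was 0.00 with an SD of 0.25. Of the 37 genes, 11 are shorter than these ORFs. ino80d lay above arp8d for 35 genes (50.4%), with a median of 0.32, and arp5d lay above arp8d for 33 (51.1%), with a median of 0.26. ies6d lay above ino80d for 34 (50.8%), with a median of 0.22. ino80d lay above arp5d for 27 (49.5%), and the median of arp5d over ino80d was -0.06. After division by the FPKM sum, the median of ies6d over ino80d turned to -0.071, with ies6d higher for 7 genes (16.3% of kept features). That over arp5d was 0.058, with ies6d higher for 27 (17.6%). The count of 7 is near the share of all features. On that scale the median of ies6d over arp8d was 0.089, with ies6d higher for 26 genes (8.49%). The median of arp5d over arp8d was 0.040 and that of ino80d over arp8d 0.19. The median of all kept features also moved, to -0.28 for ies6d over ino80d, -0.19 for ies6d over arp5d and -0.40 for ies6d over arp8d. Relative to it, the 37 genes were at 0.21, 0.24 and 0.49 in these 3 pairs, and with the deposited values at 0.21, 0.25 and 0.50. For arp5d over arp8d and ino80d over arp8d the median of all kept features moved to -0.21 and -0.12. Relative to it, the 37 genes were at 0.25 and 0.32 there, and with the deposited values at 0.26 and 0.32. Gene length mattered as well. With the median of ORFs of like coding length subtracted, ies6d lay above ino80d for 26 genes (54.3% of kept features with a coding length). The median was then 0.079, against 0.023 over all kept features with a coding length. For ies6d over arp5d the same correction gave 36 genes (53.3%) and a median of 0.19, against 0.012.

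Set together, both arp5d and ies6d lay above both ino80d and arp8d for 9 of 37 genes, close to the 20.2% of all kept features. These were NDI1, SDH3, QCR8, RIP1, COX13, ATP2, ATP7, ATP15 and ATP18. Both lay below for 0 genes, against 18.7% of kept features. After division by the FPKM sum the counts were 1 and 8. The shares of all kept features were not computed on this scale, where the medians of all kept features had also moved. The 18.7% therefore cannot be set beside the count of 8.

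The ratio in ies6d varied with gene length over the genome, and many of the 37 genes are short. Their coding lengths ran from 180 to 1923 bases with a median of 468, against a median of 1206 over the 5633 kept annotated ORFs, and 11 of 37 were under 300 bases. Of 10 classes of kept ORFs by length, the shortest, up to 402 bases, gave median ratios, on the log2 scale, of 0.00 for ino80d, -0.02 for arp8d, 0.09 for arp5d and 0.19 for ies6d. The 26 genes of at least 300 coding bases had medians of 0.84 for ino80d, 0.48 for arp8d, 0.76 for arp5d and 0.95 for ies6d, close to those of all 37. Across the 37 genes, Spearman's rho of the log2 ratio with coding length was 0.28, 0.30, 0.26 and 0.12 in the same order.

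**Figure D4:**
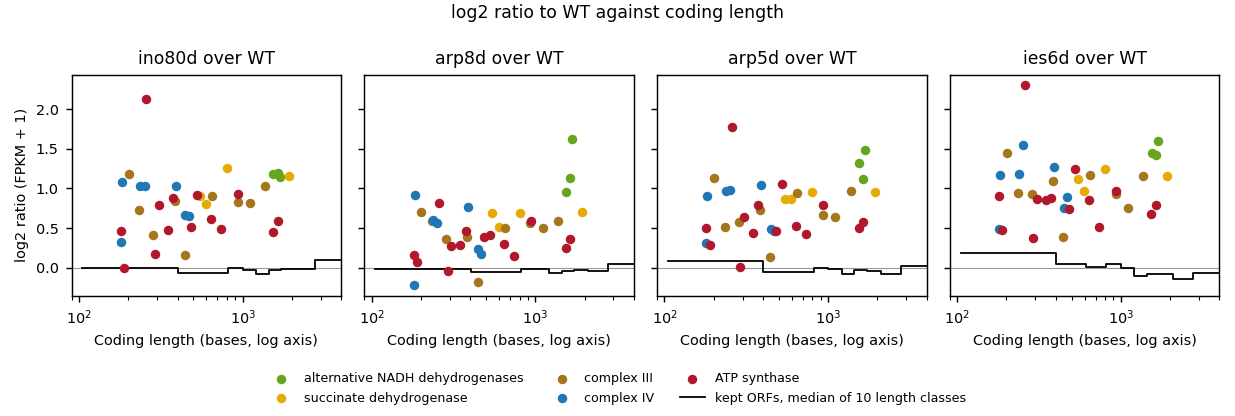
Log2 ratio to WT (FPKM + 1) of each of the 37 genes against coding length in bases (log axis), 1 panel per mutant, coloured by complex. The black line is the median of kept annotated ORFs in 10 classes of length, which starts at 0.19 in ies6d, and most points lie above it at every length.

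Of the genes that supply or regulate the chain, HAP4 (YKL109W, chromosome XI) had the highest ratios of the HAP genes. It lay at 169.8 FPKM in ino80d, 276 FPKM in arp8d, 221 FPKM in arp5d and 280.4 FPKM in ies6d, against 41.1 FPKM in WT, with log2 ratios of 2.02, 2.72, 2.40 and 2.74. HAP2 had log2 ratios of 0.64 to 1.06, and HAP3 and HAP5 of 0.10 to 0.44. HAP1, a heme-dependent activator, lay at 41.5, 41.6, 42.1 and 38.3 FPKM in ino80d, arp8d, arp5d and ies6d, against 47.2 FPKM in WT. The 17 genes with ACCAATNA had median log2 ratios of 0.91 for ino80d, 0.51 for arp8d, 0.94 for arp5d and 1.16 for ies6d, and the 20 without it 0.69, 0.44, 0.57 and 0.92, with overlapping ranges in each mutant. CCAAT alone stood before 34 of the 37, so most of these 20 genes hold the shorter form. Whether HAP4 RNA bears on the level of these genes was not tested.

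Of the 8 other regulators kept, ROX1 in arp8d was the only call at 1.5-fold. ROX1, the repressor of hypoxic genes, lay at 136 FPKM in ino80d, 191 FPKM in arp8d, 140.3 FPKM in arp5d and 142 FPKM in ies6d, against 115 FPKM in WT. MOT3, another repressor of hypoxic genes, had log2 ratios of -0.51 to -0.17, and MIG1, the glucose repressor, of 0.16 to 0.41.

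Cytochrome c, the carrier between complexes III and IV, has the isoforms CYC1 and CYC7. CYC7, the minor form of cells short of oxygen, lay at 84.04, 102.5, 83.9 and 189 FPKM in ino80d, arp8d, arp5d and ies6d, against 5.85 FPKM in WT. CYC1 lay at 335, 481, 282 and 444 FPKM, against 263 FPKM in WT. The complex IV isoforms COX5A and COX5B had log2 ratios of 0.31 to 0.84 and 0.43 to 1.20. CYT2, which attaches heme to cytochrome c1, had ratios of 0.05 to 0.44.

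The assembly genes of the complexes were counted by complex. Over all kept features, 15.1, 11.0, 13.3 and 14.4% reached 1.5-fold above WT in ino80d, arp8d, arp5d and ies6d, and 13.2, 8.33, 10.9 and 10.4% the same size below it. For succinate dehydrogenase, 4, 2, 4 and 4 of 5 assembly genes reached 1.5-fold above WT in ino80d, arp8d, arp5d and ies6d. SDH6 was highest, at 310.3, 310.1, 301 and 323 FPKM, against 99.02 FPKM in WT, and the log2 ratios of SDH7 and SDH5 ran from 0.49 to 1.10. For complex III, 1, 1, 1 and 4 of 10 were at least 1.5-fold higher and 0 lower, with CBT1 (0.79 to 1.21) the highest, followed by CBS2 (0.20 to 0.75) and CBP6 (0.39 to 0.77), which act on the expression of cytochrome b. The count of 1 of 10 in ino80d, arp8d and arp5d is near or under the share of all features.

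For complex IV, the longest list, 2, 2, 2 and 5 of 31 assembly genes reached 1.5-fold above WT and 3, 2, 3 and 1 the same size below it. These counts are near or under the shares of all features, and the medians were 0.00, -0.09, -0.07 and 0.06. PET117, an assembly factor, had the lowest ratio to WT of the list, at 38.3, 53.0, 32.5 and 44.7 FPKM in ino80d, arp8d, arp5d and ies6d, against 138 FPKM in WT. COA2 and SHY1, also assembly factors, had log2 ratios of 0.63 to 1.46 and 0.67 to 0.70. For ATP synthase, 4, 2, 2 and 5 of 13 were higher and 0, 1, 0 and 1 lower, with INA22, AEP3 and NCA2 at 0.50 to 0.99.

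Genes of the cofactors lay close to WT. None of 10 coenzyme Q genes was at least 1.5-fold higher in any mutant, and 1 was lower in ino80d and in arp8d, with medians of -0.16, -0.21, -0.03 and 0.03. COQ8, COQ10 and COQ7 had log2 ratios of -0.69 to -0.31. None of 8 heme synthesis genes passed 1.5-fold in either direction, with HEM12 at -0.41 to -0.26, HEM15 at 0.23 to 0.25 and HEM4 at 0.06 to 0.30.

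Small proteins bound to the complexes spanned a wide range. COX26, a small protein found with complex IV in supercomplexes, lay at 437 FPKM in ino80d, 383 FPKM in arp8d, 439 FPKM in arp5d and 808 FPKM in ies6d, against 76.9 FPKM in WT. RCF1 and RCF2, supercomplex factors, had log2 ratios of -0.43 to 0.13. STF1, a relative of INH1, had ratios of 0.62 to 1.04. STF2, named as a factor that stabilises the inhibited ATPase and also known from desiccation tolerance, lay at 2138, 3041, 3802 and 6002 FPKM in ino80d, arp8d, arp5d and ies6d, against 300.7 FPKM in WT. ATP19, a membrane-sector subunit not among the 37, had ratios of -0.17 to 0.79.

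Other routes into the chain were higher in part. CYB2, the L-lactate dehydrogenase that feeds cytochrome c, had log2 ratios of at least 1.30, GUT2, the mitochondrial glycerol 3-phosphate dehydrogenase, of 1.04 to 1.60, and DLD1, for D-lactate, of 0.14 to 1.01. Of the succinate dehydrogenase paralogues, YJL045W had ratios of at least 0.97, at 7.83 to 11.7 FPKM in the mutants, against 3.51 FPKM in WT, while SHH3 and SHH4 lay between -0.21 and 0.31. Among 7 genes of carriers and pores, PIC2, a phosphate and copper carrier, had ratios of 1.62 to 2.13, AAC1 of 0.29 to 0.88, and AAC3, the ADP/ATP carrier of anaerobic growth, of -1.02 to -0.37.

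**Figure D5:**
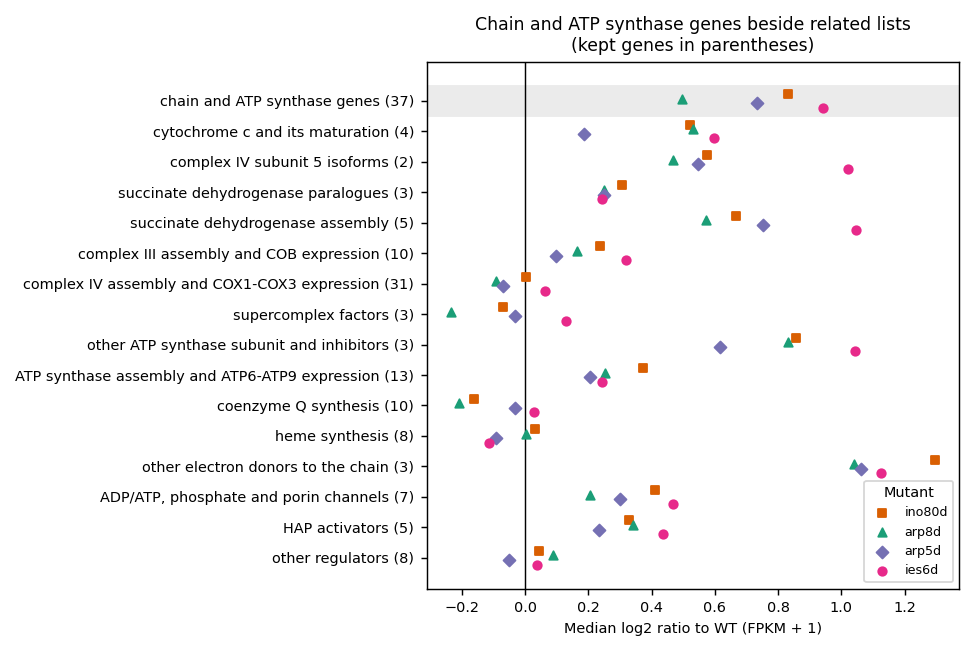
Median log2 ratio to WT (FPKM + 1) of the 37 genes (shaded) and of 15 lists of related genes, by mutant, with the number of kept genes in parentheses. The medians of complex IV assembly, coenzyme Q and heme genes lie near 0, and the 37 genes lie between 0.50 and 0.94.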

How the data were processed

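The deposited table gives FPKM for 6567 features in 5 strains, as the authors computed it, with 1 value per strain for 2 biological replicates. TopHat2 and Cuffdiff on build sacCer3 were used, per the submitters' processing notes. Tool versions, gene models and the scaling of libraries are not given in the sources used here. Depth per library is unknown, so no counting interval or detection limit was computed. The library kit is TruSeq RNA v2, per the labels' protocols.

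From these values, log2 ratios of FPKM + 1 were taken for features with a mean of at least 5 FPKM. Names, positions and coding lengths came from RefSeq R64, the assembly of sacCer3, where 5888 IDs matched a locus tag and 679 did not. No gene of the 37 overlaps another annotated gene. None has a copy of at least 90% identity over at least 50% of its length (blastn 2.17.0). Python 3.11.15 with pandas 2.3.3 was used. The log2 ratios, and the share of unchanged features past 1.5-fold, were tested on simulated data. The gene counts and division by the full FPKM sum were not. With 1 value per strain there is no test, and sizes of 1.5-fold and 2-fold were used.

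The genes and lists were chosen with earlier results of these data known. All 37 genes are covered, with the highest and lowest of each complex by mean ratio in full, and up to 3 genes of each related list by size of mean ratio. HAP genes, ROX1, CYC1, CYC7, COX5A and COX5B are named in any case. The list of subunits encoded in mitochondrial DNA was not analysed here. Alternatives were other pseudocounts, filters, scalings, a length correction, a 2-fold threshold and leaving out chromosomes I, III and XI.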

Additional observations from a re-analysis of the deposited data

How the results depend on the processing

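No median ratio to WT, over the 37 genes or over a complex, changed sign under any alternative run, but comparisons between mutants did. The median log2 ratio over them ranged over 0.79 to 1.24 for ino80d, 0.48 to 0.79 for arp8d, 0.65 to 0.98 for arp5d and 0.81 to 1.04 for ies6d. Scaling mattered most. After division by the FPKM sum, 26 genes were at least 1.5-fold higher in arp8d, whose median was 0.78, with 1.39 for the NADH dehydrogenases, 0.98 for succinate dehydrogenase, 0.79 for complex III, 0.85 for complex IV and 0.58 for ATP synthase. The median of all kept features in arp8d was then 0.26, and the 37 genes lay 0.522 above it, against 0.516 as deposited. The share of all features at 1.5-fold, or in a given order of the 4 mutants, was not computed after rescaling. On this scale 23 genes reached 1.5-fold in all 4 mutants, 3 were highest in ies6d and lowest in arp8d, and arp5d and ies6d both lay above ino80d and arp8d for 1 gene and below for 8, against 9 and 0 as deposited. The median of ies6d over ino80d turned to -0.071, that over arp8d was 0.089, that over arp5d 0.058, and that of arp5d over arp8d 0.040. All kept features had medians of -0.28, -0.40, -0.19 and -0.21 in these pairs. Without the 10 highest features in the sum, an alternative added after seeing the data as was the 300-base search, the medians for ino80d were 1.24 over the 37 genes and, in the same order of complexes, 1.57, 1.43, 1.24, 1.44 and 0.96. Those for arp8d were 0.79, then 1.40, 0.99, 0.80, 0.86 and 0.59, with 26 genes at 1.5-fold. Those for arp5d were 0.98, then 1.56, 1.15, 0.91, 1.16 and 0.76. The medians of all kept features also rose, to 0.39 for ino80d, 0.27 for arp8d, 0.22 for arp5d and 0.07 for ies6d. Under this scaling 26 genes reached 1.5-fold in all 4 mutants, 6 were highest in ies6d and lowest in arp8d, and 1 lay higher in both arp5d and ies6d than in ino80d and arp8d. The median of ies6d over ino80d was then -0.090, and over arp8d 0.31. All kept features had medians of -0.30 and -0.18 in these pairs, and relative to them the 37 genes were at 0.21 and 0.50. Taken relative to the shifted median of each mutant, 30 genes were highest in ies6d and lowest in arp8d. All alternatives for pairs of mutants were likewise added after seeing the data.

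At a 2-fold threshold, 12 genes passed in ino80d, 2 in arp8d, 7 in arp5d, 16 in ies6d and 2 in all 4. Of kept features, 6.82, 5.10, 6.44 and 7.28% were at least 2-fold higher, with the mutants in the same order. For arp8d the 2 genes, or 5.41% of the 37, were thus near the share of kept features. Such a share was not computed for all 4 mutants together. The NADH dehydrogenase median in arp8d was 1.31 with 0.1 FPKM added and 0.88 with 5 FPKM added, and NDE2 is the low gene there. With the median of the length class subtracted, complex IV in ies6d was at 0.98. The median of ies6d over ino80d was at 0.079, with ies6d higher for 26 genes (54.3% of kept features with a coding length). The cause of these shifts was not tested beyond the scaling medians given with the order of the mutants. No paired analysis was possible because each strain has 1 value. Leaving out a replicate was not possible for the same reason, and with unknown depth no value has a counting error.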
